A study of Mus musculus with 2 samples.

Results

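The 10 genes described here, called the members, belong to the immediate early response and were measured in immune cells from mouse tumors. They were the AP-1 subunit genes Fos, Fosb, Jun, Junb and Jund, the related factor gene Atf3, the factor genes Egr1 and Ier2, and the feedback genes Dusp1 and Zfp36. They were taken by symbol, and all 10 were found among the 31253 features of the count tables. Live CD45+ immune cells, CD45 being the surface protein of white blood cells, had been sorted from subcutaneous tumors of B16, a mouse melanoma line. The shSdc1 tumors grew from B16 cells whose Sdc1 message (syndecan-1, a proteoglycan of the cell surface) a hairpin RNA targets, and the shRFP tumors from B16 cells with a control hairpin. All recipients were wild-type mice vaccinated under the skin of the other flank with irradiated B16 cells producing GM-CSF, 12 days before they received the tumor cells. Tumors were taken after another 16 days and digested with collagenases, hyaluronidase and DNase for 15 min at 37 °C. In the labels 1 tag gives Sdc1 knockout as the genotype of the shSdc1 sample, but the title and the protocol speak of a hairpin. The age and sex of the mice and the number of hairpin clones are not given in the sources used here.

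Each group was 1 droplet library (3′ v3.1 chemistry) from 6 pooled tumors. There were therefore no replicates, no difference was tested, and the spread between mice or libraries cannot be told apart from the difference between the groups. Barcodes with at least 200 detected genes and under 10% mitochondrial UMIs (unique molecules counted) were kept as cells. This left 5576 cells with 4281577 UMIs in shSdc1 and 5225 cells with 4116399 UMIs in shRFP, with a median of 601 UMIs per cell in shSdc1 and 662 in shRFP. The libraries shared 17 barcode sequences among these cells, which were treated as separate cells. CD45 itself (Ptprc) had 579 CPM in shSdc1 and 457 CPM in shRFP, where CPM stands for UMIs per 1000000 UMIs counted in the same cells. Of the 5 red cell markers 4 had no UMI, of the 6 fibroblast markers 4 and of the 6 mast cell and basophil markers 3, while the 8 melanoma markers summed to 75.9 CPM in shSdc1 and 42.8 CPM in shRFP. Sdc1, which the hairpin targets in the tumor cells and not in the sorted host cells, had 85 UMIs in shSdc1 and 103 in shRFP, so it does not check the knockdown. Cells were clustered without the members, without other immediate early genes and without heat shock genes, so that none of these shaped the cell groups. Clusters were called by class from marker genes, with "-like" added. Ranges in brackets are 95% intervals for counting error only.

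Immediate early genes are switched on within minutes of a growth factor, antigen receptor, microbial or stress signal, without new protein being made first. Fos and Jun proteins pair into AP-1, a factor that binds TRE sites in DNA, while Atf3 pairs with Jun proteins and can repress its targets. The same signals raise brakes: Dusp1 removes phosphate from MAP kinases, and Zfp36 (tristetraprolin) binds AU-rich messages such as those of inflammatory cytokines and speeds their decay. In macrophages these genes are known to respond strongly to microbial products, and in T cells to antigen receptor signals.

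Promoters of 3 members, Fos, Dusp1 and Zfp36, are shown, because each held a motif that was found in no other member searched. RefSeq sequence of build GRCm38.p6 was at hand for 8 of the 10 members, all but Egr1 and Ier2, and the 250 bases before the annotated start were searched on both strands. Capitals mark the motifs. In Fos (chr12:85473640-85473889, plus strand) they are TGACG, the CRE half-site, at 129 to 125 and 66 to 62 bases before the start, and TATAAA at 33 to 28. In Dusp1 (chr17:26508473-26508722, minus strand) they are a TGACG at 191 to 187 bases before the start and the full CRE, TGACGTCA, at 143 to 136, which holds a half-site on each strand. In Zfp36 (chr7:28379229-28379478, minus strand) they are a CArG box, the kind of site bound by SRF, at 58 to 49 bases before the start. Each sequence is written 5′ to 3′ on the strand of its gene.
Fos: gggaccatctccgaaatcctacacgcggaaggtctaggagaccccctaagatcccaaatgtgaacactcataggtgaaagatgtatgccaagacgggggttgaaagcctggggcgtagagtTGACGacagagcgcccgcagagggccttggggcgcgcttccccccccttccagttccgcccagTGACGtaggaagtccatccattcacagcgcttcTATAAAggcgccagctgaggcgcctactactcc
Dusp1: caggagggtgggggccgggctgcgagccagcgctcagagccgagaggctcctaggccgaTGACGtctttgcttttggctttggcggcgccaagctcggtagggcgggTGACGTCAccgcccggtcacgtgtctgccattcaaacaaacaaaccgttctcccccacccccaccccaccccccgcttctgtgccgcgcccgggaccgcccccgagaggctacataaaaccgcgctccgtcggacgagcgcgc
Zfp36: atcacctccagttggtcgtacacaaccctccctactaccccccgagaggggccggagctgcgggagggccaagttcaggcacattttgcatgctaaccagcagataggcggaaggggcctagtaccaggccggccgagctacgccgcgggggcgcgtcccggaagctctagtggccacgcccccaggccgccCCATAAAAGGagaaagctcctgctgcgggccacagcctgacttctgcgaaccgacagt
The CRE half-site was found in 5 of the 8 member windows (Atf3, Dusp1, Fos, Fosb and Junb) and in 17.8% of all 32851 windows of the same length. In the windows not shown it lay at 7 to 3 bases before the start in Atf3, at 60 to 56 in Fosb and at 106 to 102 in Junb. The full CRE was found in Dusp1 alone of the 8 and in 1.55% of all windows, the CArG box in Zfp36 alone and in 1.47%, and TATAAA in Fos alone and in 12.4%. No member window held the TRE, written TGANTCA, which 6.75% of all windows held. These are matches of letters in these windows and do not show binding. RefSeq starts can differ from the GENCODE gene bounds given below. The Jund window ends at base 70697738, while its gene bounds begin at 70698949, and the windows of Atf3, Dusp1 and Zfp36 lie inside their gene bounds. The motif counts hold for these windows only.

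In both libraries 7 of the 10 members had a lower level in T-like than in monocyte/macrophage-like cells, all but Junb, Jund and Ier2. Jund was higher in T-like cells, at 1420 CPM in shSdc1 and 1479 CPM in shRFP, against 518 CPM in shSdc1 and 687 CPM in shRFP in monocyte/macrophage-like cells. Ier2 was also higher in T-like cells in both libraries, and Junb in shSdc1 but not in shRFP. Of 16 clusters, 14 had at least 50 cells in both libraries. Among these the summed members were highest in shSdc1 in cluster 3, a monocyte/macrophage-like cluster led by Il1a, Cxcl3 and Ptgs2, at 12870 CPM [12370 to 13390]. In shRFP they were highest in cluster 6, a monocyte/macrophage-like cluster led by Hp and Chil3, at 15740 CPM [15300 to 16180]. They were lowest in the NK-like cluster in both libraries, at 2740 CPM in shSdc1 and 3054 CPM in shRFP. The spread between the highest and the lowest cluster was 4.70-fold in shSdc1 and 5.15-fold in shRFP. For the summed members, 7 of the 13 neighbouring pairs in the order of clusters had overlapping intervals in each library, so only the broad order is resolved.

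**Figure D1:**
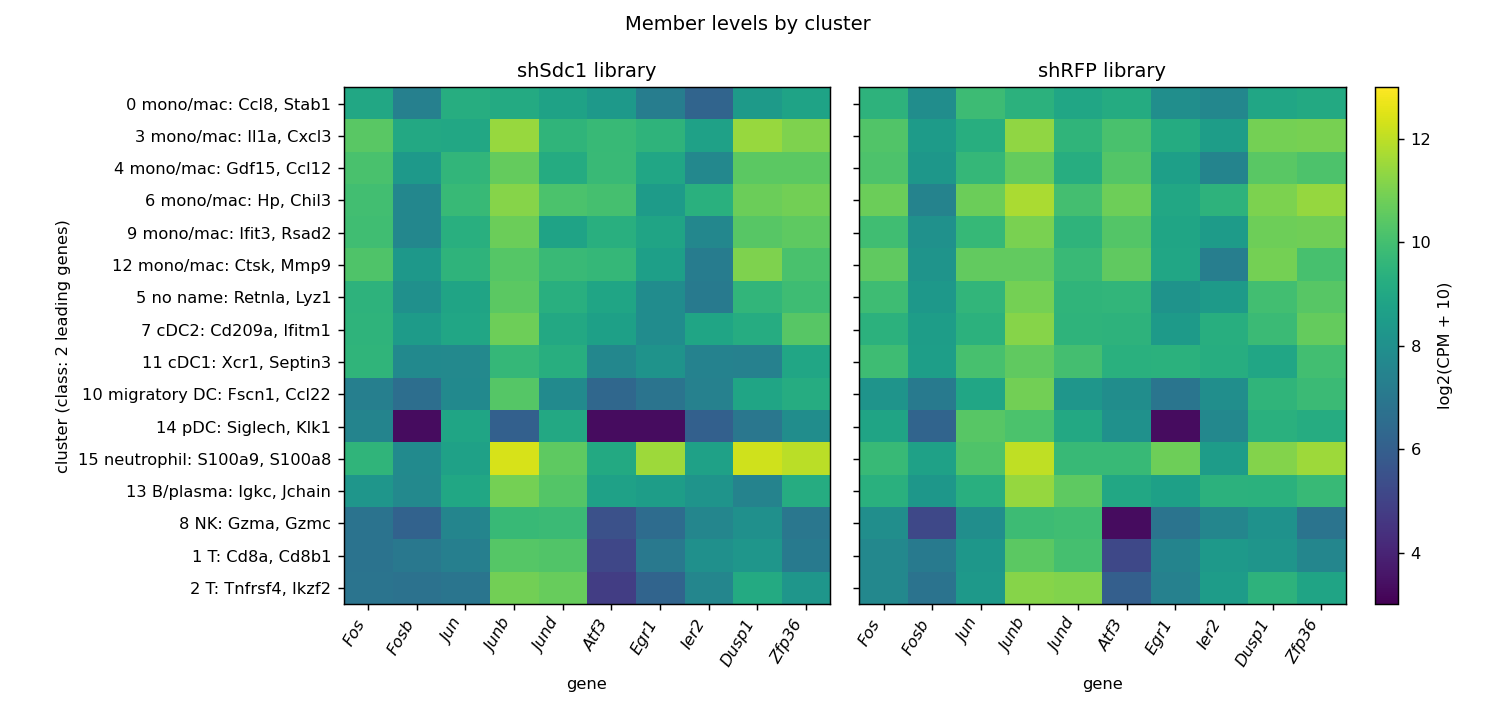
Level of each member, as log2(CPM + 10), in 16 clusters (rows, with class and 2 leading genes) of the shSdc1 library (left) and the shRFP library (right). Most members are brightest in monocyte/macrophage-like and neutrophil-like rows, while Junb and Jund are also bright in T-like rows.

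The monocyte/macrophage-like class itself was not uniform. Cluster 0, led by Ccl8, Stab1 and the C1q genes, had a member sum of 3519 CPM [3402 to 3640] in shSdc1 and 4979 CPM [4785 to 5177] in shRFP, below the T-like cluster 2 in both libraries. Cluster 0 held 52.1% of the class in shSdc1 and 18.5% in shRFP. Cluster 3 held 10.7% of the class in shSdc1 and 32.8% in shRFP, and cluster 6 held 3.61% in shSdc1 and 19.9% in shRFP. The 2 clusters with the highest member sums of the class thus made up a smaller part of it in shSdc1. Values for the class as a whole carry this difference in makeup.

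**Figure D2:**
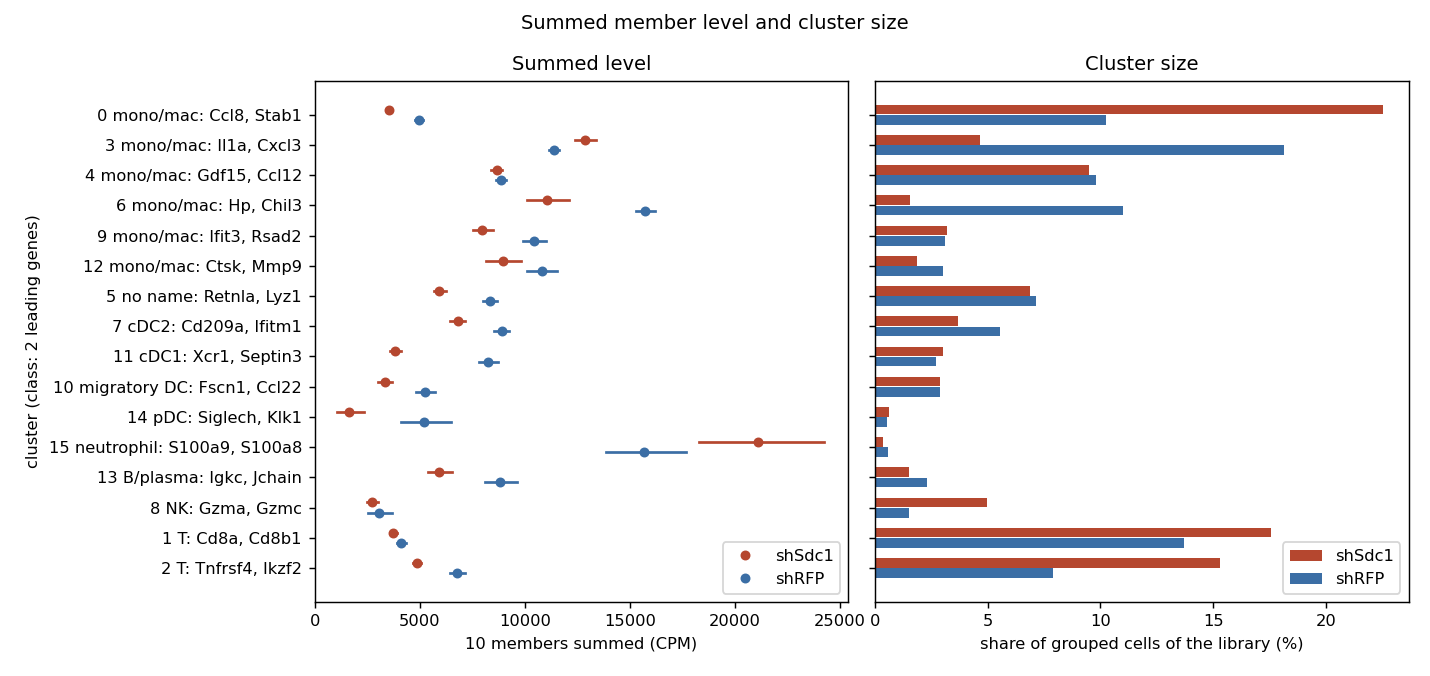
Left, the 10 members summed, in CPM with 95% counting intervals, per cluster in shSdc1 (red, upper) and shRFP (blue, lower); right, the share of each library's grouped cells in the cluster, in percent. Cluster 0 is low in summed level and holds 22.5% of shSdc1 and 10.3% of shRFP cells, while clusters 3 and 6 are high and hold 4.65% and 1.56% of shSdc1 cells and 18.1% and 10.98% of shRFP cells.

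Over all cells every member was lower in shSdc1, and every counting interval lay below 1. Of the 10 members 7 were lower by at least 1.5-fold and none was higher by as much, while 5.79% of the 10801 genes with at least 20 UMIs were lower by at least 1.5-fold and 15.6% higher. The median log2 ratio of the members, shSdc1 over shRFP, was -0.73, and that of all these genes 0.14. With TMM scaling all ratios shift by -0.15 on the log2 scale and with median-of-ratios scaling by -0.14, and the share of genes past 1.5-fold that were higher is then 54.9% and 55.9%, against 72.9% with total UMIs. Relative to the median gene the members were therefore lower still. No cell carried the sums: the cell with most UMIs of a member held at most 1.09% of them in shSdc1 and 0.687% in shRFP, in both cases for Egr1.

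**Figure D3:**
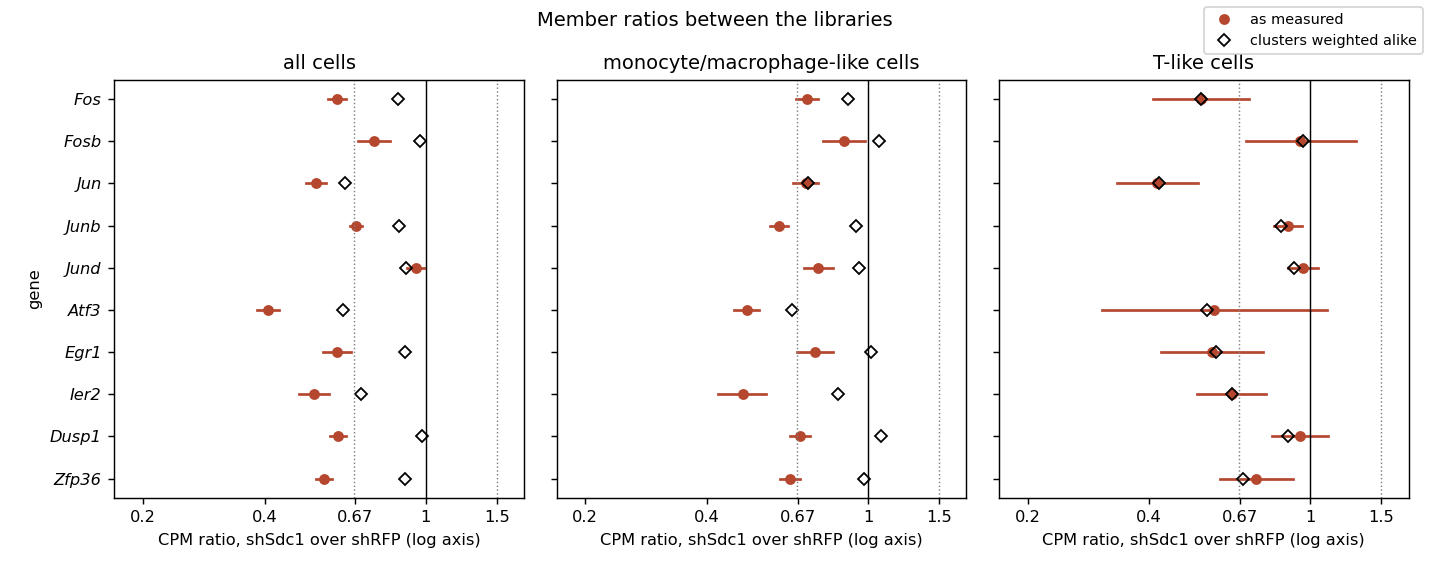
Ratio of CPM, shSdc1 over shRFP, on a log axis for each member in all cells, monocyte/macrophage-like cells and T-like cells. Filled points are the ratios as measured with 95% counting intervals, open diamonds the ratios with clusters weighted alike, and dotted lines mark 1.5-fold either way. All filled points lie below 1, and the open diamonds of Fosb, Egr1 and Dusp1 lie above 1 in monocyte/macrophage-like cells.

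The Fos family genes encode the AP-1 subunits that cannot pair with themselves. Fos (ENSMUSG00000021250, mm10 chromosome 12, 85473890 to 85477273, plus strand) had 2381 UMIs or 556 CPM in shSdc1 and 3793 UMIs or 921 CPM in shRFP, a ratio of 0.604 [0.573 to 0.635]. Its levels were far apart between classes, with 816 CPM in shSdc1 and 1156 CPM in shRFP in monocyte/macrophage-like cells, against 103 CPM (111 UMIs) in shSdc1 and 193 CPM (109 UMIs) in shRFP in T-like cells. The ratio was 0.706 [0.662 to 0.752] in the first class and 0.537 [0.409 to 0.706] in the second. Fosb (ENSMUSG00000003545, chromosome 7, 19302696 to 19310051, minus strand) differed less, with 198 CPM in shSdc1 and 265 CPM in shRFP and a ratio of 0.747 [0.682 to 0.818]. In T-like cells its ratio of 0.943 [0.692 to 1.29] held 1 within its interval. Across the 14 clusters the Fos ratio was below 1 in 12 and the Fosb ratio in 9. Shares and medians of all genes were not computed for every one of these clusters. Counts of clusters, here and for the members below, therefore stand alone.

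The Jun family genes encode the AP-1 subunits that pair with Fos proteins or with each other, and the 3 genes behaved differently from each other. Jun (ENSMUSG00000052684, chromosome 4, 95049034 to 95052222, minus strand) had 428 CPM in shSdc1 and 797 CPM in shRFP, a ratio of 0.537 [0.507 to 0.568]. It was the one member whose ratio was below 1 in all 14 clusters, and it was lower by at least 1.5-fold in 8 of them. In T-like cells Jun had 139 UMIs or 130 CPM in shSdc1 and 175 UMIs or 309 CPM in shRFP, a ratio of 0.419 [0.333 to 0.526]. The upper bound of that interval was past 1.5-fold lower, but the interval covers counting error only. Among barcodes with at least 500 genes the T-like Jun ratio was 0.5815, outside it.

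Junb (ENSMUSG00000052837, chromosome 8, 84974484 to 84978718, minus strand) had 1327 CPM in shSdc1 and 1967 CPM in shRFP, a ratio of 0.674 [0.652 to 0.698]. In monocyte/macrophage-like cells the ratio was 0.603 [0.573 to 0.634], and in T-like cells 0.881 [0.814 to 0.954]. Jund (ENSMUSG00000071076, chromosome 8, 70698949 to 70700616, plus strand), known as the steadily expressed Jun gene, stood nearest to 1 over all cells as measured, with 788.5 CPM in shSdc1 and 834.5 CPM in shRFP, a ratio of 0.945 [0.901 to 0.991]. T-like cells, where its level was high, were 32.8% of grouped cells in shSdc1 and 21.6% in shRFP. Its ratio was 0.755 [0.696 to 0.818] in monocyte/macrophage-like cells, 0.9596 [0.881 to 1.04] in T-like cells and 0.599 [0.472 to 0.760] in conventional DC 1-like cells. With all clusters given the same weights in both libraries it was 0.895, farther from 1 than Dusp1 at 0.980 and Fosb at 0.967. Its order over clusters was also its own. Jund was highest in the T-like cluster 2, led by Tnfrsf4, Ikzf2 and Foxp3, at 1613 CPM in shSdc1 and 2175 CPM in shRFP, and lowest in migratory DC-like cells at 213 CPM in shSdc1 and 298 CPM in shRFP.

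Atf3 (ENSMUSG00000026628, chromosome 1, 191170296 to 191218039, minus strand) had the lowest ratio over all cells. It had 1502 UMIs or 351 CPM in shSdc1 and 3541 UMIs or 860 CPM in shRFP, a ratio of 0.408 [0.384 to 0.433]. In monocyte/macrophage-like cells it had 573 CPM in shSdc1 and 1143 CPM in shRFP, a ratio of 0.501 [0.467 to 0.538]. Its ratio was below 1 in 13 of the 14 clusters and lower by at least 1.5-fold in 9, and the remaining cluster, the NK-like one, had 5 Atf3 UMIs in shSdc1 and none in shRFP. Clusters 3 and 4, where most members were near or above 1, still had Atf3 ratios of 0.777 [0.653 to 0.919] and 0.672 [0.594 to 0.760]. T-like cells had 23 Atf3 UMIs in shSdc1 and 21 in shRFP.

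Egr1 encodes a zinc finger factor of the early growth response, and Ier2 a small nuclear protein of the same response. Egr1 (ENSMUSG00000038418, chromosome 18, 34859823 to 34864984, plus strand) had 235 CPM in shSdc1 and 389 CPM in shRFP, a ratio of 0.604 [0.558 to 0.654], and was below 1 in 12 of the 14 clusters. Ier2 (ENSMUSG00000053560, chromosome 8, 84661331 to 84662852, minus strand) had 191 CPM in shSdc1 and 362 CPM in shRFP, a ratio of 0.529 [0.485 to 0.576]. It had the lowest ratio of the members in monocyte/macrophage-like cells, with 157 CPM in shSdc1 and 321 CPM in shRFP and a ratio of 0.490 [0.427 to 0.561]. In cluster 0 Ier2 had 64.2 CPM in shSdc1 and 187 CPM in shRFP, a ratio of 0.344 [0.245 to 0.478].

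The feedback genes were lower over all cells as measured, and nearer to 1 with clusters weighted alike, as was every other member but Jund. Dusp1 (ENSMUSG00000024190, chromosome 17, 26505590 to 26562128, minus strand, a span that overlaps other annotated genes) had 719 CPM in shSdc1 and 1187 CPM in shRFP, a ratio of 0.606 [0.579 to 0.634]. Zfp36 (ENSMUSG00000044786, chromosome 7, 28376784 to 28380253, minus strand) had 722 CPM in shSdc1 and 1289 CPM in shRFP, a ratio of 0.560 [0.536 to 0.586]. Both were lower in shSdc1 in monocyte/macrophage-like cells, at ratios of 0.679 for Dusp1 and 0.643 for Zfp36. With clusters weighted alike Dusp1 was at 0.980 over all cells and 1.08 in monocyte/macrophage-like cells, while Zfp36 was at 0.890 over all cells and 0.978 in monocyte/macrophage-like cells. In T-like cells Dusp1 was 0.943 [0.806 to 1.10] and Zfp36 0.735 [0.597 to 0.906]. With clusters weighted alike they were farther from 1 there, Dusp1 at 0.879 and Zfp36 at 0.681.

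Within monocyte/macrophage-like cells, 2298 in shSdc1 and 2755 in shRFP, 4 members were lower by at least 1.5-fold (Junb, Atf3, Ier2 and Zfp36), beside 9.01% of 9166 genes lower and 14.5% higher. All 10 ratios were below 1 with intervals below 1, and the median log2 ratio was -0.53, against 0.08 for all genes. With TMM or median-of-ratios scaling 7 members were lower by as much. Of the 9166 genes 1065 were then lower and 1032 higher with TMM scaling. With median-of-ratios scaling 1134 were lower and 959 higher, against 826 lower and 1332 higher with total UMIs. The share of genes past 1.5-fold that were higher was thus 49.2% or 45.8%, against 61.7% with total UMIs. When the 6 clusters of the class were given the same weights in both libraries, the median ratio was 0.942 in place of 0.690. Only Atf3 was then lower by at least 1.5-fold, at 0.648, with Jun next at 0.712. Fosb at 1.07, Egr1 at 1.02 and Dusp1 at 1.08 then lay above 1. The summed members were 6468 CPM in shSdc1 and 9946 CPM in shRFP as measured, a ratio of 0.650, and 8005 CPM in shSdc1 and 8833 CPM in shRFP with clusters weighted alike, a ratio of 0.906. Over all cells and all 16 clusters the same weighting gave 0.836 for the sum in place of 0.622, and left Atf3 at 0.624 and Jun at 0.632 lower by at least 1.5-fold. All genes were not weighted in this way, so no share or median of all genes stands beside these values.

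Single clusters of the class went different ways. The shares and the median ratio of all genes were not computed for them, so the member counts stand alone here. In cluster 3, 7 members were above 1, with intervals above 1 for Fosb, Junb, Egr1 and Dusp1. Dusp1 had 2764 CPM in shSdc1 and 1915 CPM in shRFP there, a ratio of 1.44 [1.30 to 1.60]. Jun in the same cluster had 494.5 CPM in shSdc1 and 611 CPM in shRFP, a ratio of 0.810 [0.643 to 1.01]. In cluster 4, led by Gdf15 and Ccl12, the median ratio was 0.995 and 5 members were above 1. In cluster 0 all 10 were below 1, with a median of 0.693, and in cluster 6 Fos had 987 CPM (42 UMIs) in shSdc1 and 1715 CPM (537 UMIs) in shRFP, a ratio of 0.576 [0.410 to 0.789].

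**Figure D4:**
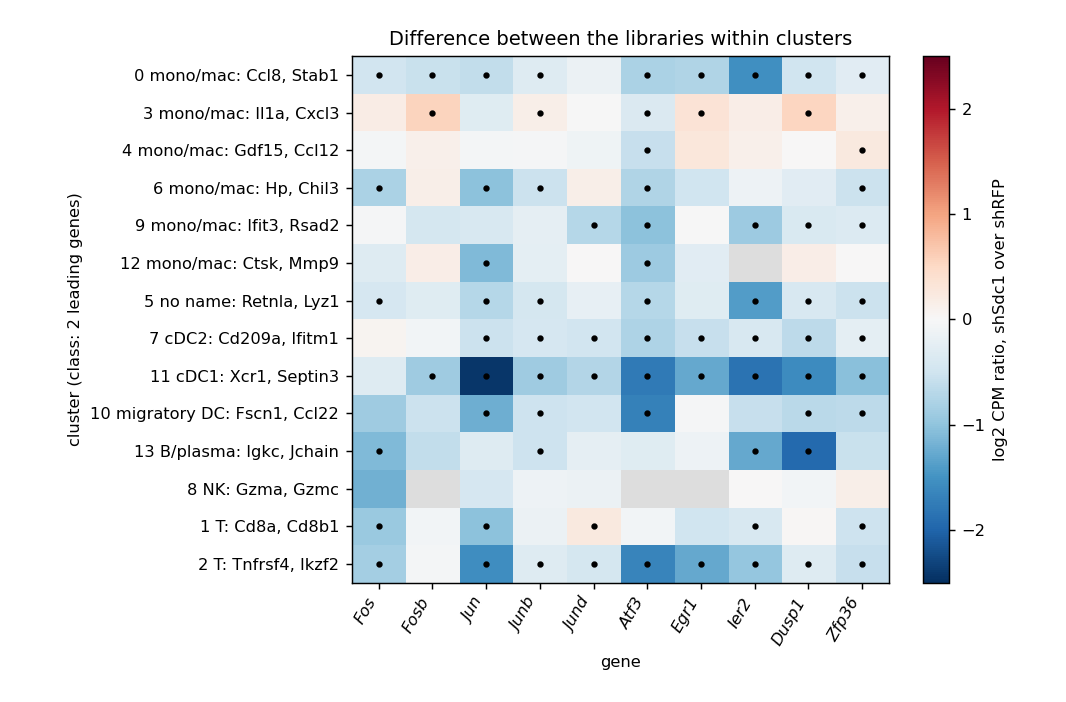
Log2 ratio of CPM, shSdc1 over shRFP, of each member in the 14 clusters with at least 50 cells in both libraries. Blue is lower in shSdc1, red higher, grey marks genes under 20 UMIs or without UMIs in 1 library, and dots mark counting intervals that leave out a ratio of 1. Jun is blue in all 14 rows, the conventional DC 1-like row is the darkest, and the row of cluster 3 is mostly red.

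Among dendritic cells, which take up antigen and present it to T cells, the conventional DC 1-like cells had the lowest median ratio, 0.448, of the 3 classes in which all 10 members were measured. They were 161 cells in shSdc1 and 134 in shRFP, and 9 of 10 members were lower by at least 1.5-fold in shSdc1, beside 11.7% of 2805 genes lower and 15.4% higher. Jun had 44 UMIs or 201 CPM in shSdc1 and 165 UMIs or 1082 CPM in shRFP, a ratio of 0.186 [0.13 to 0.26]. Ier2 was at 0.279 [0.184 to 0.415], Atf3 at 0.295 [0.199 to 0.429] and Dusp1 at 0.334 [0.217 to 0.507], while Fos at 0.795 [0.631 to 1.002] was the member not past 1.5-fold. The median UMIs per cell were 1305 in shSdc1 and 1048.5 in shRFP, and the heat shock genes summed to 0.567 of the shRFP level there. The part of depth in these ratios was not tested.

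Migratory DC-like cells had 5 members lower by at least 1.5-fold (14.5% of 1618 genes were, and 13.9% were higher), with Atf3 at 0.311 [0.120 to 0.719] and Jun at 0.428 [0.248 to 0.717]. Conventional DC 2-like cells had 2 (12.6% of 3598 genes were lower and 12.6% higher), and Fos was at 1.05. Cluster 5, a cluster led by Retnla and Lyz1 that took no class name, had all 10 members below 1 and 3 lower by at least 1.5-fold (14.8% of 4039 genes were, and 13.9% were higher). B and plasma-like cells had 4 lower, but 33.3% of 868 genes were lower by as much there and 9.79% higher.

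Few values could be had in the smallest classes. Neutrophil-like cells were 20 in shSdc1 and 28 in shRFP, and Dusp1 had 48 UMIs or 5017 CPM in shSdc1 and 38 UMIs or 2265 CPM in shRFP, a ratio of 2.21 [1.42 to 3.48]. Of the 7 members measured in them 3 were higher by at least 1.5-fold, beside 16.8% of 226 genes, and 1, Jun, was lower, beside 21.2%. In NK-like cells, 263 in shSdc1 and 75 in shRFP, 7 members were measured and every interval held 1. Fos, at 0.432 [0.177 to 1.12], was the 1 member lower by at least 1.5-fold, beside 13.9% of 1645 genes lower and 19.9% higher. In plasmacytoid DC-like cells Jun was the one member with at least 20 UMIs, at 0.343, beside 15.3% of 262 genes lower by at least 1.5-fold and 14.1% higher.

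T-like cells, 1744 in shSdc1 and 1075 in shRFP, had 5 members lower by at least 1.5-fold (Fos, Jun, Atf3, Egr1 and Ier2), beside 7.37% of 7679 genes lower and 12.6% higher. All 10 ratios were below 1, of which 6 had intervals below 1, and the median log2 ratio was -0.54, against 0.08 for all genes. Atf3 entered this count on 23 UMIs in shSdc1 and 21 in shRFP, with a ratio of 0.578 that was 0.991 with the listed genes left in the clustering. Among barcodes with at least 500 genes the count of members lower by as much was 3. Jun was then at 0.5815 and still in the count, while Fos was at 0.727 and no longer in it. The makeup of the class differed between the libraries: a sub-cluster led by Tcf7, Igfbp4 and Satb1 was 11.2% of it in shSdc1 and 33.0% in shRFP, and 1 led by Il10, Itgae and Areg was 32.3% in shSdc1 and 23.8% in shRFP. Values for the whole class carry this difference. The T-like cluster 2 had 5 members lower by at least 1.5-fold (9.99% of 5284 genes were, and 14.0% were higher), with Jun at 0.339 [0.233 to 0.492] and Egr1 at 0.414 [0.249 to 0.690]. In cluster 1, led by Cd8a, Cd8b1 and Ifng, 2 were (8.93% of 5971 genes were, and 15.8% were higher), with Jun at 0.489 [0.364 to 0.656] and Fos at 0.525 [0.363 to 0.757], and Jund was at 1.18 [1.04 to 1.35]. Weighting 7 T-like sub-clusters alike left Jun at 0.455, Egr1 at 0.642 and Ier2 at 0.650 past 1.5-fold and moved Fos to 0.675 and Atf3 to 0.986. One sub-cluster, led by Ccl2, class II and C1q genes, held 12 cells in shSdc1 and 16 in shRFP.

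Messages of other cells were also counted in T-like cells. The 8 monocyte/macrophage markers stood there at 0.312% to 0.903% of their level in monocyte/macrophage-like cells in shSdc1, with a median of 0.614%, and at 1.02% to 4.80% in shRFP, with a median of 2.10%. The members stood at 3.74% to 274% in shSdc1, median 35.4%, and at 3.25% to 215% in shRFP, median 36.3%. Atf3 was the lowest member in both, and it lay above the range of the markers in shSdc1 and within it in shRFP. The part of these messages in the T-like ratios was not tested.

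Over all grouped cells, members were found together in fewer cells of shSdc1. Each cell was thinned to 300 UMIs, which left out 537 shallower cells in shSdc1 and 398 in shRFP. At least 3 members were then detected in 16.9% [15.8 to 17.9] of 4776 cells in shSdc1 and in 32.9% [31.6 to 34.3] of 4585 cells in shRFP (exact Clopper-Pearson intervals). Without thinning the shares were 38.8% in shSdc1 and 61.0% in shRFP. In monocyte/macrophage-like cells the thinned shares were 23.6% in shSdc1 and 41.4% in shRFP, and in T-like cells 7.95% [6.60 to 9.47] in shSdc1 and 10.6% [8.57 to 12.9] in shRFP, with overlapping intervals. Unthinned, the T-like shares were 22.7% in shSdc1 and 23.2% in shRFP. In conventional DC 1-like cells the thinned shares were 10.0% in shSdc1 and 35.8% in shRFP. In cluster 3 the thinned shares were 52.3% [45.8 to 58.8] in shSdc1 and 46.6% [43.3 to 49.9] in shRFP, with overlapping intervals. Atf3 was detected in 8.21% of thinned cells in shSdc1 and in 19.0% in shRFP, and in T-like cells in 0.279% in shSdc1 and 0.95% in shRFP, the low level described above. No class here was taken to lack any member, so background shares were not measured.

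**Figure D5:**
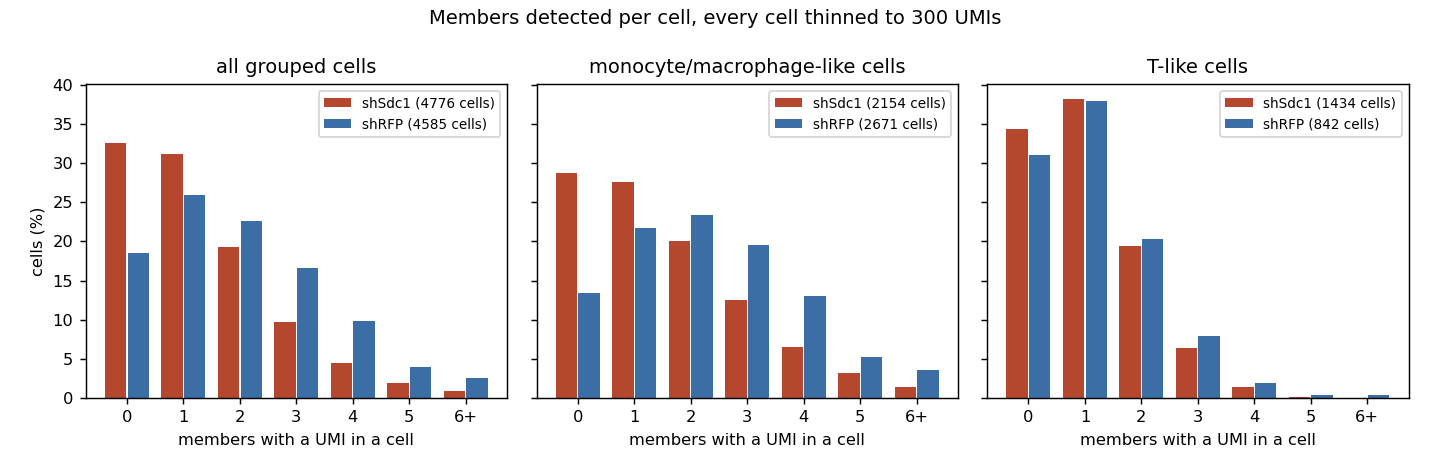
Share of cells (%) by the number of members with at least 1 UMI, every cell thinned to 300 UMIs, in all grouped cells, monocyte/macrophage-like cells and T-like cells of shSdc1 (red, left bar) and shRFP (blue, right bar). Cells with none were 32.6% of shSdc1 and 18.5% of shRFP cells in the first panel, and the T-like bars lie close to each other.

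Other genes of the pathway were read from lists, by the same counts. The shares of all genes stand beside them: 5.79% lower and 15.6% higher over all cells, and 7.37% lower and 12.6% higher in T-like cells. Of 21 other immediate early genes measured over all cells, 15 were lower by at least 1.5-fold and none was higher. Ier3, a survival gene of this response, had 454 CPM in shSdc1 and 1044 CPM in shRFP, a ratio of 0.435 [0.412 to 0.459]. Nr4a1, an orphan nuclear receptor, was at 0.535, and Nfkbia, the inhibitor of NF-kB, at 0.570. In T-like cells 2 of 20 were lower, Klf2 at 0.312 [0.240 to 0.405] and Rhob at 0.333 [0.191 to 0.570]. The 1 higher there was Egr2, with 18 UMIs in shSdc1 and 4 in shRFP and an interval that held 1, named because it was the only one and not by size.

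AP-1 and related factor genes outside the members were mixed. Of 20 measured 6 were lower by at least 1.5-fold and 1 higher over all cells, with Maff at 0.308 [0.245 to 0.384] and Fosl2, a Fos family gene, at 0.636 [0.580 to 0.697], and Atf7 at 1.79 [1.29 to 2.503]. In T-like cells none of 14 was lower, and Maf was at 1.51 [1.26 to 1.81]. Kinases and SRF factors upstream of the members stood near 1, with a median log2 ratio of 0.04 over 21 genes, 1 lower (Map3k8, 0.656) and 1 higher (Rps6ka1, 1.52), which is no more than the shares of all genes. Of the other DUSP phosphatases 3 of 10 were lower and 1 higher, Dusp10 at 1.62 [1.21 to 2.19]. The messages known as Zfp36 targets include Ier3, which is also on the list of other immediate early genes and is counted in both. Of these 13 messages 9 were lower and 3 higher. Those higher, named after their values were seen, were Csf2 with 20 UMIs in shSdc1 and 3 in shRFP, Il2 at 1.64 [0.969 to 2.84] and Ifng at 1.57 [1.29 to 1.93]. Within T-like cells, a larger part of shSdc1 than of shRFP, Ifng was at 0.871 [0.699 to 1.09]. It had 218 UMIs in shSdc1 and 132 in shRFP there. Il2 was at 1.13 in T-like cells, on 15 UMIs in shSdc1 and 7 in shRFP. Il1b, the gene of interleukin-1 beta, had 539 CPM in shSdc1 and 1891 CPM in shRFP, a ratio of 0.285 [0.272 to 0.298], and Cxcl2, a chemokine gene for neutrophils, was at 0.370. The genes Ptgs2, Il1b, Cxcl1 and Cxcl2 lead cluster 3, so their library values also carry the size of that cluster. Unlike the other immediate early genes, these 4 were not left out of the clustering.

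Heat shock genes, which encode chaperones, are given apart from the members. Summed, they had 7328 CPM in shSdc1 and 10900 CPM in shRFP, a ratio of 0.672, and weighting all clusters alike left 0.704, while the members went to 0.836. In cluster 3 the heat shock sum was at 0.668 [0.630 to 0.707] and the member sum at 1.13 [1.08 to 1.18]. Over the 28 sums of 14 clusters by 2 libraries, the members' sum and the heat shock sum had a Pearson r of 0.54 on the log2(CPM + 10) scale. These 28 points share 2 libraries and the cell classes, so this and the next values are descriptions.

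The members did not all follow 1 pattern over the same 28 sums. Across the 45 pairs of members the median r was 0.607, with Atf3 and Zfp36 at 0.910 and Fos and Atf3 at 0.906. Junb and Ier2 were at 0.755, but with Jun they were at 0.312 and 0.299. Jund was at 0.008 with the sum of the other 9 members, and at -0.229 with Zfp36. Of 5503 genes outside the members with at least 200 UMIs, the pattern most like the members' sum was that of Tiparp (r 0.911), followed by Ccr1 (0.877), Ndel1 (0.858), Plaur (0.849) and Ifrd1 (0.848). Mcl1, Cd14, Cebpb, Klf4 and Csrnp1 came next, from 0.847 to 0.828. Klf4 and Csrnp1 are on the list of other immediate early genes.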

How the data were processed

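Deposited values were raw UMI counts per gene and barcode. The authors made them with Cell Ranger (version 6.1.1 per the file headers) on build mm10 per the submitters' processing notes. The annotation release was not stated. The deposited tables held 5902 barcodes (4370725 UMIs) in shSdc1 and 5786 (4255928 UMIs) in shRFP. Of these, 276 in shSdc1 and 530 in shRFP had under 200 genes, and 74 in shSdc1 and 46 in shRFP had at least 10% mitochondrial UMIs. Members and gene lists were chosen with earlier results of these data known.

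Scrublet in scanpy 1.11.5 marked 0 barcodes in shSdc1 and 1 in shRFP, too few to have worked. The highest scores, 0.8% per 1000 barcodes (263 barcodes in shSdc1 and 242 in shRFP), were therefore kept out of the cell groups, which held 5313 cells in shSdc1 and 4983 in shRFP, but not out of "all cells". Clusters came from 2000 variable genes, 30 principal components, 15 neighbours and Leiden at resolution 1, without integration. A class needed a mean log2 fold of 0.5 over its markers and 3 markers at 2-fold, a rule set after the data were seen. Cluster 5 scored best for monocytes and macrophages, but another class had more markers than that one among its leading genes. In weighting clusters alike, each cluster took its share of the UMIs of both libraries together.

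Summed UMIs gave CPM with exact Poisson intervals and ratios with exact conditional binomial intervals (95%), checked on simulated data. Ratios needed 20 UMIs over both libraries. TMM factors came from edgeR 4.0.16, and no test was run. Listed genes were named at 1.5-fold or more with an interval leaving out 1, at most 6 per list. The genes most like the members were the 10 with the highest r. Positions come from GENCODE M21.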

Additional observations from a re-analysis of the deposited data

Results flagged for a closer look

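Some members had an interval above 1 in a cluster while the same member had an interval below 1 in others. The differences between clusters were not tested. In cluster 3 these were Fosb at 1.47, against 0.541 in conventional DC 1-like cells, Junb at 1.11, against 0.541, Egr1 at 1.27, against 0.414, and Dusp1 at 1.44, against 0.259 in B and plasma-like cells. Jund was at 1.185 in the T-like cluster 1, against 0.599 in conventional DC 1-like cells, and Zfp36 at 1.19 in cluster 4, against 0.484 in the same cells.

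Barcodes that failed the filters on genes or mitochondrial UMIs, 326 in shSdc1 and 561 in shRFP, entered no comparison and also held member UMIs. The members' sum was 9692 CPM [9056 to 10360] in shSdc1 and 9267 CPM [8769 to 9786] in shRFP. In these barcodes the intervals of the libraries overlapped, while in kept cells the sum was 5516 CPM in shSdc1 and 8872 CPM in shRFP. The failed barcodes took no cell class, so their makeup is not known. They also failed unlike: 276 in shSdc1 and 530 in shRFP had under 200 genes, and 74 in shSdc1 and 46 in shRFP had at least 10% mitochondrial UMIs.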

How the results depend on the processing

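Each group was 1 library, so no replicate could be left out. No paired analysis was possible because there was 1 library per group. Recomputed under the alternatives, the 9 summary results kept 85 values within counting error or, for counts, within 1.5 times, and 14 moved. No summary turned direction. The tally overstates how steady the results are. The values kept include the counts of members higher, which were 0 in every setting. They also include the setting with no minimum on UMIs, which could not change a value because all 10 members already passed the minimum. For alternatives other than scaling, no counts of all genes are given beside those of the members. Over all cells the median log2 ratio was -0.87 with TMM scaling, -0.86 with median-of-ratios scaling and -0.20 with clusters weighted alike, and the count of members lower was 2 with clusters weighted alike and 1 at 2-fold. In monocyte/macrophage-like cells the count was 7 with either scaling, 1 with clusters weighted alike and 1 at 2-fold, and the median was -0.65 with median-of-ratios scaling and -0.09 with clusters weighted alike. In T-like cells the count was 3 with at least 500 genes per barcode, 1 at 2-fold and 3 with sub-clusters weighted alike, and the median, -0.54 as measured, was -0.26 with the listed genes left in the clustering and -0.35 with sub-clusters weighted alike. Weighting and scaling act by construction on the makeup and on all ratios alike; the cause of the other moves was not tested. For single members 246 values stayed and 64 moved. Fosb, Egr1 and Dusp1 crossed 1 in monocyte/macrophage-like cells with clusters weighted alike, Fosb in T-like cells (1.001) with the listed genes left in the clustering, and Junb in T-like cells (1.01) with at least 500 genes. Sub-clusters weighted alike, cluster 5 counted with its best class and all deposited barcodes were alternatives chosen after seeing the data. Clusters do not enter the sums over all cells, so the other clusterings gave no value there. At 500 UMIs per cell, at least 3 members were found in 29.97% of shSdc1 and 55.8% of shRFP cells. Small classes are limited by depth, with as few as 20 cells.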
